A study of Chlamydomonas reinhardtii with 2 samples.

Results

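The 5' ends of cDNAs from the unicellular green alga Chlamydomonas reinhardtii were mapped as clusters of read starts, and 395 such clusters are described here. They were taken from the N-replete library of a cDNA sequencing series on nitrogen supply. A read was counted as a 5' end read when its first 34 to 44 bases did not align to the genome, and start positions on 1 strand that lay within 10 bases of each other were joined. Clusters were chosen by their number of such reads, with 5 or more required on the sequences numbered 1 to 17, which gave 395 of 4548 clusters on these sequences and of 5046 clusters in the whole library. They were thus selected on the start positions and numbers of these reads, so the sizes and widths below are descriptions without a test. By the criteria given below, other reads went against the name of a 5' end at 31 of the 395 clusters. The main counts are given with and without them.

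The strain was dw15.1, of genotype cw15, nit2, mt+, where cw15 affects the cell wall. The cells were grown in TAP medium with 10 mM ammonium to 5000000 cells per mL under continuous light. The culture was then divided, and the N-replete cells were kept for 48 h in 50 mL of the same medium. The N-deprived cells, of the same strain, were kept for 48 h in 50 mL of medium without nitrogen. Their library was not analysed here. With a single library there was no comparison of the conditions and no replicate error. Intervals are exact Clopper-Pearson 95% intervals for shares and order-statistic 95% intervals for medians, and they cover counting error only, because PCR copies are not independent molecules.

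Transcription by RNA polymerase II begins at a single base at some promoters and over a stretch of bases at others, which are called sharp (focused) and broad (dispersed). The start of an mRNA carries a cap. In the SMART method the reverse transcriptase adds untemplated bases when it reaches that end and then copies an added oligonucleotide, so the 5' end of a complete cDNA is joined to a known synthetic sequence. That sequence has no match in the genome and appears as unaligned bases at the start of a read. A cDNA that stopped early, or an RNA that was cut, can also acquire the synthetic sequence, so a cDNA end is not by itself a transcription start.

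The opposite end of each cDNA is set by the primer for reverse transcription. Its sequence is shown because its length bears on how the ends of a cDNA were told apart in these reads, with the oligo(dT) part that pairs with the poly(A) tail in capitals and without its last 2 bases, which were degenerate.
cDNA synthesis primer: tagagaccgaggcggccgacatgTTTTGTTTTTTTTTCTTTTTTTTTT
This primer has 50 bases in all, the first 23 of which precede the oligo(dT) part. The commonest number of unaligned leading bases above 44 in the library was also 50, in 3068 reads on the numbered sequences, whereas the commonest number in the range used for 5' ends was 40, in 7011 reads. The leading lengths of the ends overlap, as some clusters at the poly(A) side show below. Base-level sequence at the clusters was not used here, since the alignment records hold positions only. The build of the genome was not given in the sources used here, so positions are those of the records, and genes, exons and untranslated regions were not assigned to them.

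The library had 223396 reads with a single best place, of which 124379 lay on sequences 1 to 17 and 17330 were 5' end reads there. The clusters held 11826 of these end reads (68.2%, interval 67.5 to 68.9). Read numbers per cluster were uneven, with a median of 10 (quartiles 6 and 23.5) and a highest value of 1061. The 10 largest clusters held 3803 reads, or 32.2% of all reads in clusters. Just inside the limit lay 62 clusters of 5 reads, with a median distance between 2 reads of 1.80 bases. Just outside it lay 124 clusters of 4 reads, with a median of 1.5 bases. A further 3269 positions had a single end read.

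Most clusters were narrow. The median cluster spanned 8 bases (quartiles 4 and 13, highest 41) and had 66.7% of its reads at its commonest base (quartiles 50 and 83.3). The mean distance between 2 reads of a cluster, a measure that does not grow with the number of reads, had a median of 1.80 bases (interval 1.56 to 2, quartiles 0.73 and 3.27). A cluster was called sharp when at least 75% of its reads lay within 1 base of the commonest position, and broad when under 50% lay within 5 bases of it. By these limits 194 clusters were sharp (49.1%), 181 were intermediate (45.8%) and 20 were broad (5.06%). All reads started at 1 base in 48 clusters. The number of broad clusters depended on the joining distance, with 4 at 5 bases and 32 at 20 bases, and it was 12 when 36 to 42 leading bases were required.

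**Figure D1:**
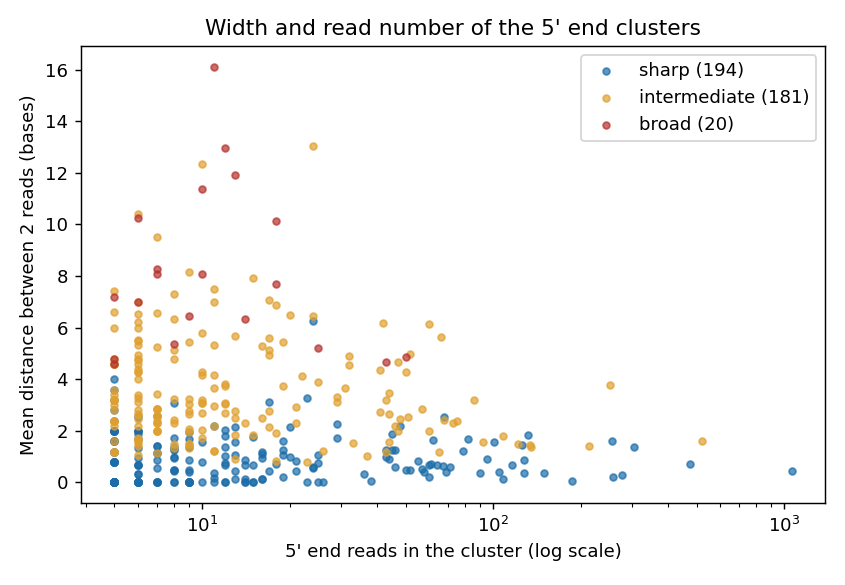
The mean distance in bases between 2 reads of a cluster (y) is plotted against its number of 5' end reads (x, log scale) for the 395 clusters, coloured by class. The 20 broad clusters have at most 50 reads each, and the clusters with the most reads lie at small distances.

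The classes had similar read numbers, with medians of 10.5 in sharp, 10 in intermediate and 10 in broad clusters. Among the 191 clusters of 5 to 9 reads, 49.2% were sharp and 9 were broad. Of the 94 clusters of 10 to 19 reads, 43.6% were sharp and 8 were broad, and of the 55 clusters of 20 to 49 reads, 45.5% were sharp and 2 were broad. Among the 55 clusters of 50 or more reads, 61.8% were sharp and 1 was broad. The median distance between 2 reads was 2, 2.08, 2.16 and 1.36 bases in these 4 classes, in order of read number, so there was no steady trend.

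The largest cluster was sharp and lay on sequence 8 at base 1117963, on the minus strand. Of its 1061 reads, 923 started at that base, 78 started 1 base downstream and 33 started 2 bases upstream. In all, 94.6% of the reads lay within 1 base of the commonest start. A first intron was seen in its direction in 1038 of the reads, after a first exon of 32 bases. The commonest poly(A)-side end of this cDNA lay 383 bases away on the genome.

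Several other large clusters were also sharp. On sequence 14 at base 1981009, on the plus strand, 184 of 186 reads started at 1 base. On sequence 2 at base 3834972, on the minus strand, 237 of 259 reads did, and 16 more started at the next base downstream. On sequence 4 at base 34039, on the plus strand, the number was 253 of 277 reads, ahead of a first exon of 22 bases. These clusters spanned between 6 and 10 bases, with few reads away from the peak. On sequence 8 at base 220026, on the plus strand, 384 of 473 reads started at the commonest base and 36 started 2 bases downstream.

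The second largest cluster had a pair of nearly equal starts. On sequence 16 at base 4755200, on the plus strand, 221 of 521 reads started at that base and 212 started 2 bases downstream, with 20 on the base between them. At both bases the commonest number of leading unaligned bases was 40, in 138 and 146 reads. Reads with 9 leading bases, described below, also used both, and their commonest start was the one 2 bases downstream. By the limits above this cluster was intermediate, although 99.6% of its reads lay within 5 bases.

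A further pair of large clusters had minor starts that came with another number of leading bases. On sequence 9 at base 3950461, on the minus strand, 246 of 304 reads started at the commonest base, mostly after 40 leading bases, and 51 started 3 bases downstream, of which 40 had 44 leading bases. On sequence 6 at base 7308911, on the plus strand, 214 of 257 reads started at the commonest base, 176 of them after 35 leading bases, and 30 started 7 bases downstream, mostly after 43. In both clusters the reads with the later start had more unaligned leading bases. At the cluster on sequence 6, 99.6% of the reads had another place on the genome.

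The other large intermediate clusters were of mixed kind. On sequence 6 at base 3977910, on the plus strand, 126 of 252 reads started at the commonest base, 51 started 4 bases upstream with 40 leading bases as the commonest number, and 55 started 2 bases downstream with 43 as the commonest. On sequence 12 at base 101146, on the minus strand, 136 of 213 reads started at the commonest base and 34 started 2 bases upstream, with 40 as the commonest number at both. This last cluster lay ahead of a first exon of 109 bases in 187 spliced reads.

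**Figure D2:**
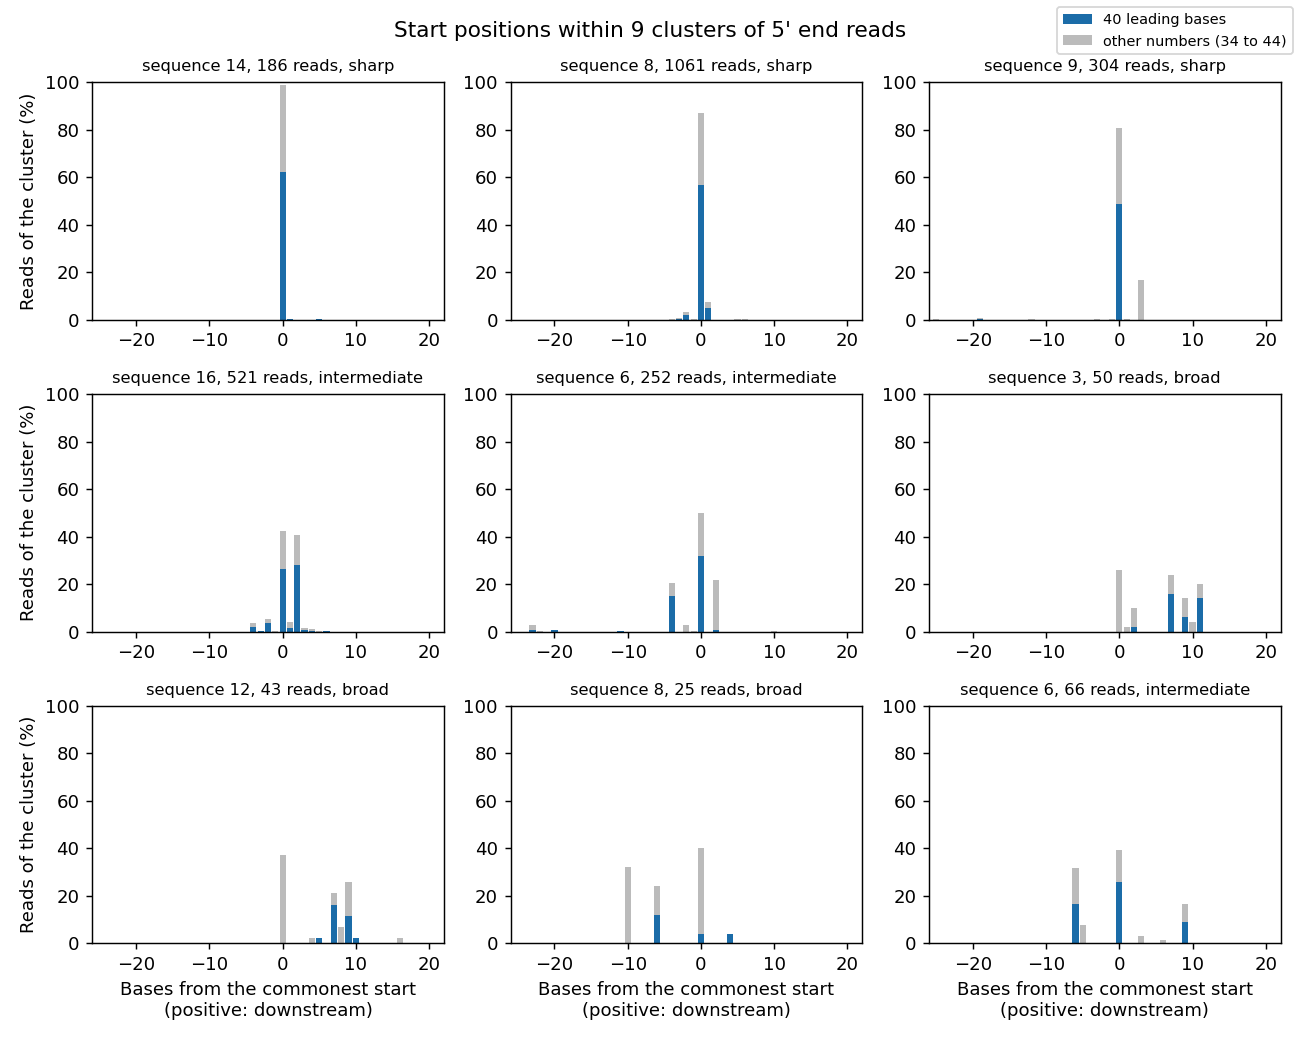
The share of a cluster's reads in percent (y) is plotted against the distance in bases from its commonest start (x) for 9 clusters, with reads of exactly 40 leading bases in blue and other reads in grey. The clusters of 186, 1061 and 304 reads have a single dominant start, the cluster of 521 reads has nearly equal starts 2 bases apart, and in the clusters of 50 and 43 reads the most upstream start is entirely grey.

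The minor starts lay close to the main one. Among the 110 clusters with at least 20 reads, 107 had a second commonest start, which was within 2 bases of the first in 67 (62.6%) and within 3 bases in 82 (76.6%). It lay 1 base downstream in 24 clusters, 2 downstream in 20, 1 upstream in 13 and 2 upstream in 10, and a smaller group of 7 clusters had it 7 bases downstream. On average 67.3% of a cluster's reads started at the commonest base, 4.37% at the next base downstream and 4.90% at the one after.

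Among these 110 clusters, 5 had all reads within 1 base. The largest of these 5 lay on sequence 4 at base 2902233, on the plus strand, with 37 of 38 reads at 1 base and a first exon of 70 bases. On sequence 4 at base 907092, on the minus strand, all 23 reads shared 1 start, and all of them had another place on the genome. On sequence 9 at base 2925804, on the minus strand, 26 reads shared 1 start with 44 as the commonest number of leading bases, while 13 reads within 5 bases had 45 to 57. On sequence 6 at base 2929823, on the plus strand, 15 of 21 reads lay at the commonest base and 6 at the base upstream. The fifth, on sequence 6 at base 3980015, on the minus strand, is discussed with the poly(A)-side ends below.

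The broadest of the clusters with at least 20 reads had several separate starts rather than an even spread. On sequence 3 at base 6967090, on the minus strand, 13 of 50 reads started at the commonest base, 12 at 7, 7 at 9 and 10 at 11 bases downstream. On sequence 12 at base 3103683, on the minus strand, 16 of 43 reads started at the commonest base, 9 at 7 and 11 at 9 bases downstream. On sequence 8 at base 3353591, on the plus strand, 10 of 25 reads started at the commonest base, 8 at 10 and 6 at 6 bases upstream. In these 3 clusters the number of leading bases moved with the position. On sequence 3 the commonest number was 35 at the most upstream start and 40 at those 7 to 11 bases downstream, and on sequence 12 the corresponding numbers were 34 and 40. On sequence 8 the commonest numbers ran 35, 38 and 44 from the most upstream to the most downstream of these starts.

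A cluster on sequence 6 kept separate starts at a constant leading length. At base 2909279 on the minus strand, 26 of 66 reads started at the commonest base, 21 at 6 bases upstream and 11 at 9 bases downstream, and 40 was the commonest number of leading bases at all 3 starts. It had 50% of its reads within 5 bases and so stood at the border of the broad class. On the same sequence and strand at base 60962, 10 of 22 reads started at the commonest base, 8 of them after 35 leading bases, and 6 started 7 bases downstream.

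The leading bases were then used to compare widths on the genome with widths counted from the start of the read. When each position was moved by the read's number of leading bases, so that reads were aligned on the synthetic sequence, the median distance between 2 reads was 2 bases over all clusters, against 1.80 bases by genome position. Sharp clusters had medians of 1.43 bases after the move and 0.70 before it. Intermediate clusters had 2.96 and 3.05, and broad clusters had 7.75 and 7.45. The distance became smaller in 28 of 194 sharp, 80 of 181 intermediate and 11 of 20 broad clusters. The classes were set on genome positions, so sharp clusters had little distance to lose and the classes are not on equal terms.

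Reads with exactly 40 leading bases give positions at a constant leading length, and they made up 5706 of the 11826 reads (48.2%). In the 166 clusters with at least 5 such reads, the median distance between 2 reads was 0.97 bases among them, against 1.57 bases among all reads of the same clusters. Of 84 sharp clusters that could be classed in this way, 81 were sharp again. Of 73 intermediate clusters, 33 were sharp, 38 intermediate and 2 broad. Of 9 broad clusters, 3 were broad and 6 intermediate, and none was sharp. These reads are part of those that set the classes, so a return to the same class was partly built in. Clusters formed anew from these reads alone numbered 164, of which 115 were sharp and 3 were broad.

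Reads that had not been used to choose the clusters gave a second view of the same ends. The commonest number of leading bases between 1 and 33 was 9, in 1954 reads on the numbered sequences, and this number was singled out after the data were seen. Of these reads, 1286 (65.8%, interval 63.7 to 67.9) started within 20 bases of the commonest start of a cluster on the same strand. Within 5 bases, 1208 of them did (61.8%), against 46 of 72390 reads with no unaligned leading base (0.0635%). Numbers of leading bases close to 9 lay between these shares, with 10.2% at 8, 12.6% at 10 and 16.4% at 12.

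The reads with 9 leading bases lay closest to the commonest start at sharp clusters and farthest from it at broad ones. Within 1 base of the cluster's commonest start lay 738 of 812 such reads at sharp clusters (90.9%, interval 88.7 to 92.8), 267 of 445 at intermediate clusters (60%, interval 55.3 to 64.6) and 3 of 29 at broad clusters (10.3%, interval 2.19 to 27.4). In the same clusters the reads used to form them had 91.2% within 1 base at sharp, 57% at intermediate and 32.1% at broad clusters. In 51 of the 66 clusters with at least 5 reads of 9 leading bases, both kinds of read had the same commonest base, and in 5 clusters, 3 of them broad, the commonest bases lay more than 5 bases apart. Across these 66 clusters, Spearman's rho between the shares within 1 base was 0.57 and Pearson's r was 0.68, as a description. Both kinds of read come from 1 library and can be copies of the same cDNA, so they are not independent molecules.

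**Figure D3:**
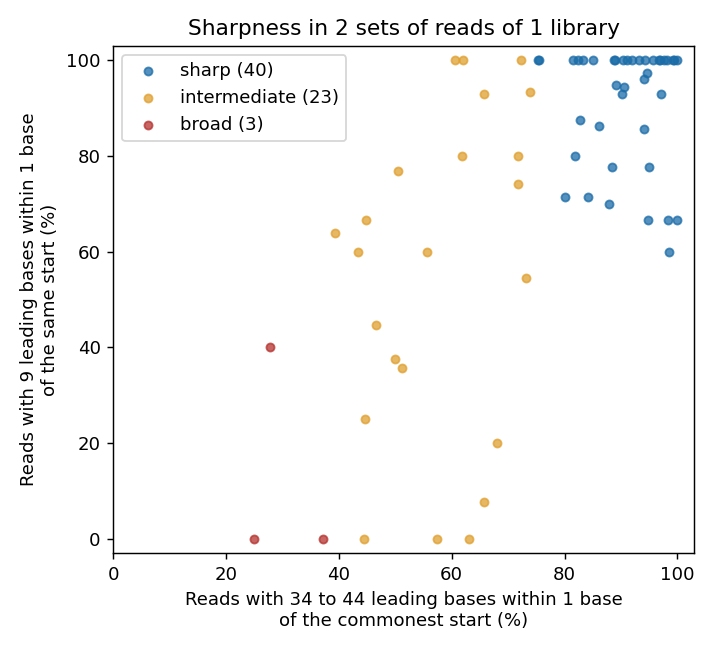
For the 66 clusters with at least 5 reads of 9 leading bases, the share in percent of these reads within 1 base of the cluster's commonest start (y) is plotted against the share of its reads with 34 to 44 leading bases (x). The 40 sharp clusters lie at 60% or more on the vertical axis, while the 23 intermediate clusters spread over the whole range and the 3 broad clusters lie at 40% or less.

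Reads in the opposite direction also ended at the clusters. On the numbered sequences 3255 reads had 34 to 44 unaligned bases after their aligned part, and 998 of them (30.7%, interval 29.1 to 32.3) ended within 5 bases of a cluster on the other strand. Of 67794 reads without trailing unaligned bases, 130 did (0.192%, interval 0.160 to 0.228). At exactly 40 trailing bases the share was 54.3%. The range as a whole was not set apart from shorter lengths. The share was 25.2% at 23 and 23.4% at 30 trailing bases, against 22.1% at 34 and 19.4% at 44. At least 1 read with 34 to 44 trailing bases was found at 202 of the 395 clusters (51.1%). Without the 31 clusters that other reads went against, the number was 177 of 364, so most of the 31 had such a read as well. Of the 31, 27 were sharp, and they are included in the shares by class below. A single one of the 31, on sequence 14 at base 3203932, held 201 of the 998 reads. Of the 998 reads, 552 ended at the commonest start itself and 653 ended within 1 base of it. Such a read was present at 114 of 194 sharp clusters (58.8%, interval 51.5 to 65.8), at 87 of 181 intermediate clusters (48.1%, interval 40.6 to 55.6) and at 1 of 20 broad clusters (5%, interval 0.127 to 24.9). The window of 5 bases takes in under 50% of the reads of a broad cluster by definition, so these shares are not on equal terms.

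**Figure D4:**
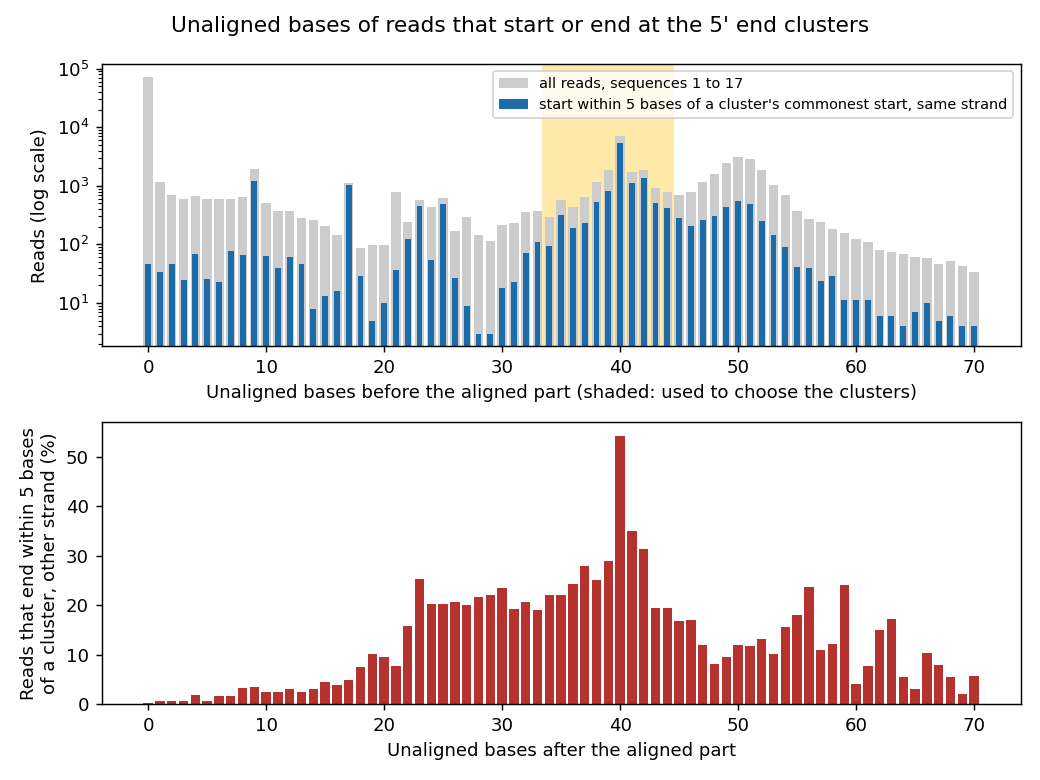
The upper panel gives the number of reads (y, log scale) by unaligned leading bases (x) for all reads on sequences 1 to 17 (grey) and for those that start within 5 bases of a cluster on its strand (blue), with the range used to choose clusters shaded. The lower panel gives the percentage of reads that end within 5 bases of a cluster on the other strand (y) by unaligned trailing bases (x). Reads at the clusters are most frequent at 40 in the upper panel, with further peaks at 9, 17, 23, 25 and 50. The percentage in the lower panel is highest at 40.

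The peaks at 17, 23 and 25 leading bases came almost entirely from around 1 cluster. It lies on sequence 14 at base 3203907, on the plus strand, with 10 reads in the range and a median identity of 89.5%. Within 5 bases of its commonest start 2279 reads began, and 0.439% of them had 34 to 44 leading bases. The cluster's own reads were thus a minor fraction of the reads that began there. In all, 8 clusters had a median identity under 95%, while the median over all clusters was 99%.

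Splicing, which had no part in choosing the clusters, gave their direction in many cases. A splice direction was present in 6169 of the reads in clusters, in 210 clusters, and it matched the strand of the cluster in 6104 of them (98.9%, interval 98.7 to 99.2). A first intron in the direction of the cluster was seen in 203 clusters. The distance from the commonest start to the first intron, which is the length of the first exon, had a median of 112 bases (interval 100 to 129, quartiles 77 and 159.5) and ranged between 22 and 215 bases. Reads are short, so first exons longer than the aligned part of a read cannot appear here, and the median describes only the exons that could be seen. By class, the median was 106 bases in 95 sharp, 121 in 97 intermediate and 124 in 11 broad clusters, with intervals of 96 to 125, 98 to 141 and 82 to 186 that overlap.

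Few clusters showed a second first intron. Of the 193 clusters with at least 2 reads spliced in their direction, 3 had a second first intron in at least 2 reads. A cluster with only 2 or 3 such spliced reads could not show one by this limit, so the number also depends on depth. On sequence 12 at base 7700410, on the minus strand, 93 reads had the main intron and 3 had one whose donor lay 12 bases away with the same acceptor. On sequence 16 at base 3882709, on the plus strand, the main intron was in 8 reads, and 2 reads had an acceptor 6 bases away from its acceptor. On sequence 12 at base 5200212, on the minus strand, 29 and 3 reads had introns that differed by 3 bases at the donor and 2 at the acceptor.

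At some clusters the other reads did not look like those of a 5' end. At 26 clusters (6.58%, interval 4.34 to 9.50), more reads starting within 5 bases had 45 to 57 leading bases, the range of the poly(A) side, than 34 to 44. Of these, 22 were sharp, 4 were intermediate and none was broad, and together they held 261 reads. The most uneven was on sequence 8 at base 1117581, on the plus strand, at the far end of the locus of the largest cluster, where 8 reads were in the range for 5' ends and 953 in the range for the poly(A) side. At the fully sharp cluster on sequence 6 at base 3980015 the numbers were 25 and 307. On sequence 8 at base 222578, on the minus strand, the numbers within 5 bases were 17 and 152, and all 82 spliced reads over that base ran on the other strand. At 253 clusters no read within 5 bases had 45 to 57 leading bases.

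**Figure D5:**
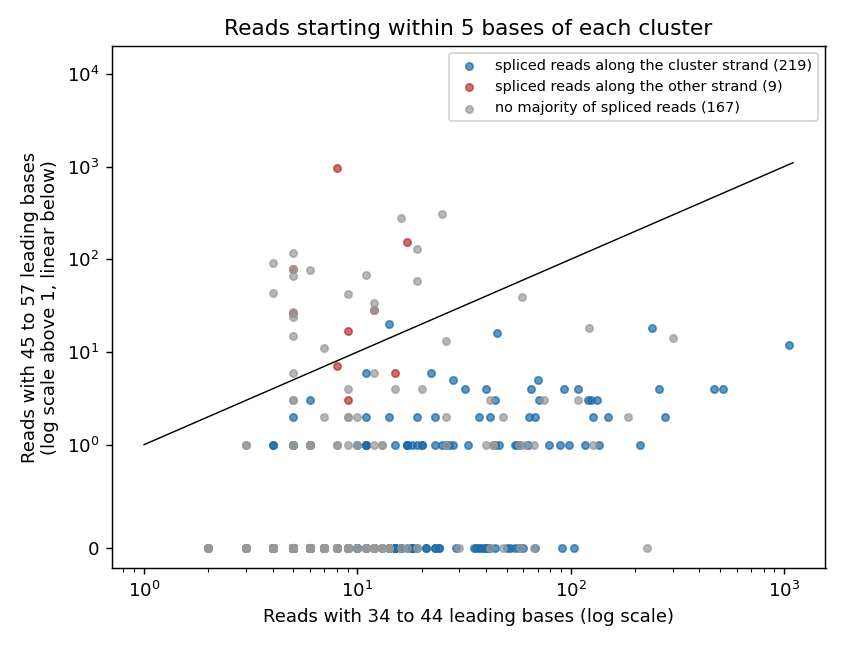
For each cluster, reads starting within 5 bases with 45 to 57 leading bases (y, log scale above 1) are plotted against those with 34 to 44 (x, log scale), coloured by the direction of spliced reads over the start. The line marks equal numbers, and 26 clusters lie above it.

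Spliced reads ran against the cluster at 9 clusters, 6 of which were among those 26. The 3 others lay on sequence 10 at base 1677764 (15 reads), on sequence 12 at base 4249559 (9 reads) and on sequence 2 at base 5430557 (8 reads). Some clusters lay at splice borders. The commonest start of 5 clusters lay within 4 bases of the edge of an intron seen in this library. On sequence 8 at base 222043, on the plus strand, 141 reads began within 5 bases and their leading bases ranged between 0 and 123 with a median of 52. The intron that ends 3 bases away was spliced out in 266 reads. On sequence 2 at base 5430557 the range was 0 to 118 and at base 357748 it was 0 to 91. The range was narrow at the other two, which lay on sequence 12, with 42 to 51 in 12 reads at base 4249559 and 36 to 40 in 5 reads at base 4249732.

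With the clusters of all 3 kinds set aside, 31 in total with 304 reads, 364 clusters were left. Of these 167 were sharp (45.9%), 177 intermediate (48.6%) and 20 broad (5.49%). The clusters set aside were sharp in 27 of 31 cases. The share of reads within 5 bases that had 34 to 44 leading bases was a median of 85.2% in the 364 clusters and 15.6% in the 31. This grouping was made after the values were seen, and the shares largely restate it, since 26 of the 31 clusters were set aside for having fewer reads with 34 to 44 than with 45 to 57 leading bases. Among the 364, the share was under 50% at 9 clusters, including the one on sequence 14 at base 3203907. Only spliced reads over the start itself were counted, so a cluster at the far edge of a locus spliced the other way could remain. An example lay on sequence 2 at base 1209575, on the minus strand. Within 5 bases, 59 reads had 34 to 44 leading bases and 39 had 45 to 57.

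Most clusters that could be oriented by splicing lay near the 5' edge of their locus. Loci were formed from overlapping alignments on either strand, and 339 loci held at least 1 cluster. Where a locus had a majority direction of splicing, 303 clusters ran in that direction. Of these, 286 lay within 100 bases of the 5' edge of the locus, and the median distance over the 303 was 9 bases. The reads of a cluster helped to set both the edge and the majority direction, so this closeness was partly built in. Of all 395 clusters, 288 were the most upstream cluster of a locus in its majority splice direction. The other clusters ran against that direction, had a further cluster upstream or lay in loci without such a majority. No other read crossed the commonest start at 229 of the 395 clusters (58.0%, interval 52.9 to 62.9), where crossing required 10 aligned bases on each side. Summed over clusters there were 3275 crossings, 21.7% of crossings and cluster reads together, and 2511 of them fell on 10 clusters. A read was counted at each cluster that it crossed, and reads of an upstream cluster were counted again where they crossed a downstream one. The share is therefore not one of distinct reads. On sequence 10 at base 1160716, 18 bases downstream of a cluster of 128 reads, 149 crossings were counted. On sequence 14 at base 3203932, one of the clusters with more poly(A)-side reads, 1053 reads crossed. Without the 31 clusters set aside, crossing reads made up 15%, and with identity of at least 95% they made up 14.7%.

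A second start in the same direction was seen in few loci. Of the 339 loci, 288 had 1 cluster, 46 had 2 and 5 had 3, and most of the loci with several clusters had them on opposite strands. In 25 of the 38 loci with clusters on both strands, at least 1 cluster had more poly(A)-side reads. Clusters on the same strand of 1 locus formed 18 pairs, and 10 of these pairs lay within 100 bases. The closest, on sequence 13, had 61 reads at base 2675635 and 6 reads 14 bases downstream. On sequence 10, 128 reads at base 1160698 were followed by 8 reads 18 bases downstream. Pairs of more equal size were small, such as 6 and 8 reads 22 bases apart on sequence 7 at base 5472870, on the minus strand. The upstream cluster had more reads in 15 of the 18 pairs. Of the 6 pairs more than 1000 bases apart, 3 had a downstream cluster at a splice border, namely those at base 222043 on sequence 8 and at bases 5430557 and 357748 on sequence 2.

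The loci with the most clusters had 3 each, and the 3 with the most reads are described. The first, on sequence 8 between bases 220020 and 223051, had 1 sharp cluster of 473 reads at its 5' edge, the cluster at the splice border and the cluster at its poly(A) side. On sequence 2 between bases 3833373 and 3834973, clusters of 259 and 5 reads ran on the minus strand and a cluster of 31 reads at the opposite edge ran on the plus strand, with 4 poly(A)-side reads near it. On sequence 16 between bases 4755195 and 4755941, the cluster of 521 reads was joined by 7 reads within the locus on the same strand and by 5 reads on the other strand at its far edge, where 91 poly(A)-side reads began.

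At least 5 poly(A)-side reads, counted over all positions downstream in the same locus, were found for 283 clusters. The distance on the genome to the commonest of these positions had a median of 1950 bases (interval 1782 to 2094). It was 1942 bases for 128 sharp, 1954 for 142 intermediate and 1952 for 13 broad clusters. Clusters set aside above were included, such as the one on sequence 8 at base 1117581, at 378 bases. Counted once per cluster, the locus had a median of 78.5 reads for broad, 113 for intermediate and 150.5 for sharp clusters. The intervals were 35 to 140, 94 to 133 and 116 to 184. The 31 clusters set aside, of which 27 were sharp, 4 intermediate and none broad, were included, so the classes are not on equal terms.

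Clusters that face away from each other were rarely close. Among neighbouring clusters on the numbered sequences, 102 pairs pointed apart, with a median distance of 210248 bases, and 3 pairs lay within 1000 bases. Of those 3, the pair on sequence 16 at bases 2197099 and 2197754 had 8 and 6 reads and no poly(A)-side read at either. The other two involved clusters that spliced or poly(A)-side reads placed on the other strand. With at least 10 reads on each side, the closest pairs were 7773 bases apart on sequence 10, 10726 on sequence 6 and 14856 on sequence 12. In the pair on sequence 6, the plus-strand cluster at base 2920005 had 37.0% of the reads within 5 bases with 34 to 44 leading bases. At this depth a promoter whose transcript gave under 5 end reads is not seen, so these distances are not those between all promoters.

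The number of clusters per megabase ranged between 0.652 on sequence 15 and 6.73 on sequence 12, with a median of 3.34 over the 16 sequences whose length the records imply. Sequence 12 had 63 clusters, sequence 2 had 48 and sequence 6 had 44, while sequence 15 had 2. Sequence 6 held 6 of the 20 broad clusters and sequence 12 held 4. On sequence 10, 21 of 33 clusters were sharp and none was broad.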

How the data were processed

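The file deposited for the N-replete library holds alignment records of single reads (1 record per place), with no expression unit, so other measures such as positions and read numbers were derived from it. Per the file headers the authors used GMAP of 2007-09-28 with both intron length options at 1000 bases. GSNAP appears in the submitters' processing notes. The build was not given in the sources used here. At most 5 places are listed per read. Per the labels' protocols, cDNA was amplified by PCR, digested with SfiI and selected for size, which can change relative read numbers.

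Each read was placed where identity times aligned share was highest, and it was dropped when a place that did not overlap scored within 0.1 points. Gaps of at least 20 bases were counted as introns. No test was made with 1 library. Regions named in the text are the 10 clusters with the most reads, the 5 with the highest share within 1 base and the 5 with the lowest share within 5 bases among those of at least 20 reads, the 3 loci with the most clusters and the 3 closest pairs facing apart with at least 10 reads each. Other named regions were chosen after their values were seen. The clusters and all limits were chosen with earlier results of these data known. A gene table of another assembly was not used. On simulated records 200 of 200 clusters, 200 of 200 classes and 400 of 400 tied reads were recovered. Alternatives are given in the closing section. Versions were 3.11.15 for Python, 2.4.6 for numpy, 1.17.1 for scipy and 3.10.9 for matplotlib.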

Additional observations from a re-analysis of the deposited data

Results flagged for a closer look

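End reads outside the clusters described above were singled out because they are data that the clusters do not use. Sequence NA, which the choice of clusters left out, held 47827 of the 65157 reads with 34 to 44 leading bases, and 45003 of them fell in 1 cluster at base 200018. The other 2824 were spread over the rest of that sequence, which had 45 clusters of 5 or more reads in all. A further 7660 reads with 34 to 44 leading bases were left out because they scored equally at several places, and 3720 of these (48.6%, interval 47.4 to 49.7) were highest on sequence 14.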

How the results depend on the processing

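Of 126 values, 14 under each of 9 alternatives, 82 moved by less than their interval or by at most 1.5 times for a count, and 44 moved by more. Counting identical alignments once gave a median distance between 2 reads of 2.13 bases and 22.6% crossing reads. Crossing reads made up 13.6% with reads of exactly 1 alignment and 14.7% at an identity of at least 95%. With 36 to 42 leading bases there were 12 broad clusters, a median distance of 1.54 bases, a splice direction match of 99.7%, 20.3% crossing reads and 1 close pair facing apart. Joining within 5 bases gave 4 broad clusters, median distances of 1.19 bases and 1.64 bases after the move by leading bases, 32 loci with several same-strand clusters and 22.5% crossing reads. Joining within 20 bases gave 32 broad clusters, a median share within 5 bases of 91.7%, median distances of 2.57 and 2.83 bases and 21.03% crossing reads. With at least 10 reads, 204 clusters were left, with 100 sharp, 11 broad, 96.8% within 5 bases and 123 with spliced reads. The match was 99.3%, and 164 were the most upstream cluster of a locus in its majority splice direction. There were 2 loci with several same-strand clusters, 13.8% crossing reads and 0 close pairs facing apart, as fewer clusters entered. The last 2 alternatives were chosen after seeing the data. With exactly 40 leading bases, 164 clusters were left, with 115 sharp, 3 broad and a median distance of 0.89 bases on either scale. Spliced reads were present in 109 with a match of 100%, and 149 were the most upstream cluster of a locus in its majority splice direction. There were 1 locus with several same-strand clusters, 6.01% crossing reads, 112 clusters with an opposite-strand read and 0 close pairs facing apart. Without the 31 clusters set aside, the match was 100% by construction, crossing reads made up 15%, and 1 close pair faced apart. The causes of the other shifts were not tested. No paired analysis was possible because only 1 library was analysed.

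Depth limits the small clusters most, since with 5 reads a single read moves a share by 20 percentage points, and 191 of the 395 clusters had under 10 reads. Identical alignments were frequent, with 6885 distinct alignments among the 11826 reads (58.2%), so counting intervals are narrower than those over molecules.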
